A study of Rattus norvegicus with 72 samples.

Results

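Lungs of rats that had inhaled filtered air were compared 27 days and 7 days after the end of the inhalations, to show which lung transcripts changed with time in animals that received no particles. The 24 libraries are those of a series of 72 whose titles name the filtered-air treatment and either of these days, 12 from day 27 and 12 from day 7, with 1 library per animal. All animals were adult male Sprague-Dawley rats, an outbred strain, and were kept in an inhalation chamber with filtered air 6 hours per day for 4 days before they were killed at their day. The other rats of the series breathed air with diesel exhaust particles at either 1000 or 200 ug/m3 on the same schedule, and 24 of them, killed at the same days, are used below for comparison. Each title also carries the letter H or L, which in exposed animals goes with 1000 and 200 ug/m3, and which splits the air rats into 6 per letter and day. The labels do not say what the letter stands for in air rats, so the sets are called H and L here. Rats of day 27 were also older when killed. Age, growth, time since the chamber and any difference in handling between the groups cannot be told apart in this design. The RNA came from a piece of whole lung, so fewer cells of a type and less RNA per cell cannot be told apart.

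The lung is held open by an extracellular matrix of fibrillar collagens, elastic fibres and basement membranes. Fibroblasts and smooth muscle cells secrete most of the collagens and elastin, which enzymes of the lysyl oxidase family then cross-link into durable fibres. Synthesis of these proteins is high while a lung grows and low in a mature lung, where the fibres turn over slowly. Dividing cells, by contrast, are recognised by transcripts of mitosis and DNA replication and by those of the clustered histones, which are made mainly while DNA is copied.

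The 24 libraries held between 3471134 and 6520180 counts, 3850245 to 6520180 at day 27 and 3471134 to 4969712 at day 7. Levels are given as CPM, a gene's counts relative to the library's total after scaling by trimmed-mean factors. Markers of lung epithelium were abundant in every library: Sftpc, the surfactant protein C of type II pneumocytes, had 3649 to 7512 CPM at day 27 and 4686 to 7984 CPM at day 7, and Scgb1a1, the secretory protein of club cells, had 1457 to 2428 CPM at day 27 and 881 to 2270 CPM at day 7. The letter sets stood apart. On the principal component that held 20.5% of the variance, day 27 of set H ranged from -21.22 to -8.67 and day 7 of set H from 9.95 to 32.89, whereas day 27 of set L ranged from -2.71 to 12.99 and day 7 of set L from -18.25 to -11.45. The days were thus in opposite order in the sets along this component, and day 27 of set H overlapped day 7 of set L. For this reason most gene lists below are also given for each set alone.

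With the letter as a block, edgeR's quasi-likelihood test called 1010 of 14498 genes (6.97%) at an adjusted p under 0.05. Of these, 433 genes (2.99%) were higher and 577 genes (3.98%) lower at day 27. This balance turned round with other terms in the fit, with 1199 higher and 1050 lower from 4 group means, 1076 higher and 1013 lower with 1 surrogate variable, and 743 higher and 661 lower with all 72 libraries. The changes were small, with a median absolute log2 fold change of 0.251 among called genes. Tested alone, set H gave 4687 calls among 14120 genes (33.2%), 2543 of them higher (18%) and 2144 lower (15.2%), and set L gave 3268 calls among 13910 genes (23.5%), 1500 higher (10.8%) and 1768 lower (12.7%). The sets shared 1735 called genes, which is 37% of the calls of set H and 53.1% of those of set L, yet 1547 of these moved in opposite directions and 188 in the same direction. The test of the difference between the sets called 5416 of 14498 genes (37.4%), of which 2716 had the more positive change in set H (18.7%) and 2700 in set L (18.6%), and 4914 of them had opposite signs in the sets. Counts of called list members below are to be read beside these shares over all genes. The changes that both sets share are described first, then gene lists with the block, whose called members are not all shared by both sets.

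**Figure D1:**
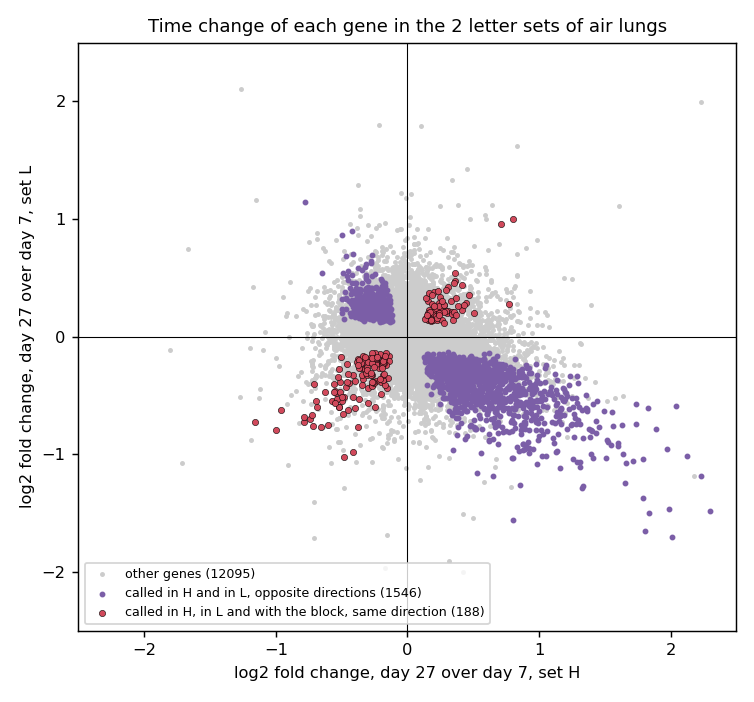
Log2 fold change of each gene, day 27 over day 7, in set H (horizontal axis) and set L (vertical axis) of air lungs. Red points are the 188 genes called in set H, in set L and with the letter as block in the same direction. Purple points are genes called in opposite directions in the sets. Of these 1547 genes 1546 are purple or lie outside the axes, because the figure used rounded adjusted p-values. Grey points are all other genes, and 2 genes lie outside the axes.

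The 188 genes called with the block and in each set alone in the same direction made up 1.36% of the 13829 genes tested in all these fits. They comprised 119 genes that fell (0.861%) and 69 that rose (0.499%), with a median absolute log2 fold change of 0.293 and none beyond 0.96. Of the 188, 12 also had a call for the difference between the sets. Within set H the 6 libraries of day 27 all lay above those of day 7 for 1413 of 14498 genes (9.75%) and all below for 864 (5.96%). Within set L this was so for 671 (4.63%) and 841 genes (5.8%). In both sets at once, 10 genes lay above (0.069%) and 26 below (0.179%). Genes whose 12 libraries of day 27 all lay below the 12 of day 7 numbered 13 of 14498 (0.0897%). They were Cpvl, Thbs2, Adamts17, Col3a1, Igsf10, Olfml3, Sparc, Sdc1, Fbn1, Col5a2, Pxdn, Kdelr1 and Cd81. Genes whose 12 libraries of day 27 all lay above those of day 7 numbered 6 (0.0414%), namely Rsbn1l, Cped1, Usp24, Crebrf, Rabgap1l and Cd3g.

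The called members among fibrillar collagens and the enzymes that process them fell. Of 14 tested members of this list, 7 fell and 0 rose with the block, and the median log2 fold change was -0.24, against 0.00 over all genes tested. In set H alone 10 fell and 0 rose, and in set L alone 7 fell and 2 rose. Col3a1, which encodes type III collagen, had 2225, 2567 and 3389 CPM as the lowest, median and highest of the 12 libraries of day 27, against 3512, 4025 and 5269 CPM at day 7. Every library of day 27 lay below every library of day 7. The log2 fold change was -0.65 ± 0.05 (SE, n = 12 per day, adjusted p = 2.35e-08), with -0.68 ± 0.09 in set H and -0.60 ± 0.05 in set L. Col5a2, a chain of the type V collagen that nucleates such fibrils, had 495, 568 and 604 CPM at day 27 and 666, 721 and 838 CPM at day 7. Its days did not overlap either, and it fell by 0.39 on the log2 scale (SE 0.04, adjusted p = 3.82e-08).

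The enzymes showed the same direction. Loxl2, a lysyl oxidase-like enzyme that cross-links collagen, had 19.9, 27.6 and 39.1 CPM at day 27 and 38.2, 47.0 and 62.7 CPM at day 7. Only the highest of the day 27 libraries passed the lowest of day 7, and within each set the days did not overlap. Its log2 fold change was -0.75 ± 0.08 (adjusted p = 5.75e-07). Adamts2, the protease that removes the amino-terminal propeptide of procollagens, had 65.2, 68.4 and 99.8 CPM at day 27, against 87.9, 101 and 120.4 CPM at day 7, with overlap between the days, and fell by 0.51 (SE 0.05, adjusted p = 7.39e-07). Also called were Col5a1, Serpinh1, the chaperone of procollagen, and Pcolce, the enhancer of procollagen cleavage. Of these, Pcolce was not called as lower in both sets. Of the 7 members that were not called, Col1a1 stood apart between the sets and is described with them below.

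**Figure D2:**
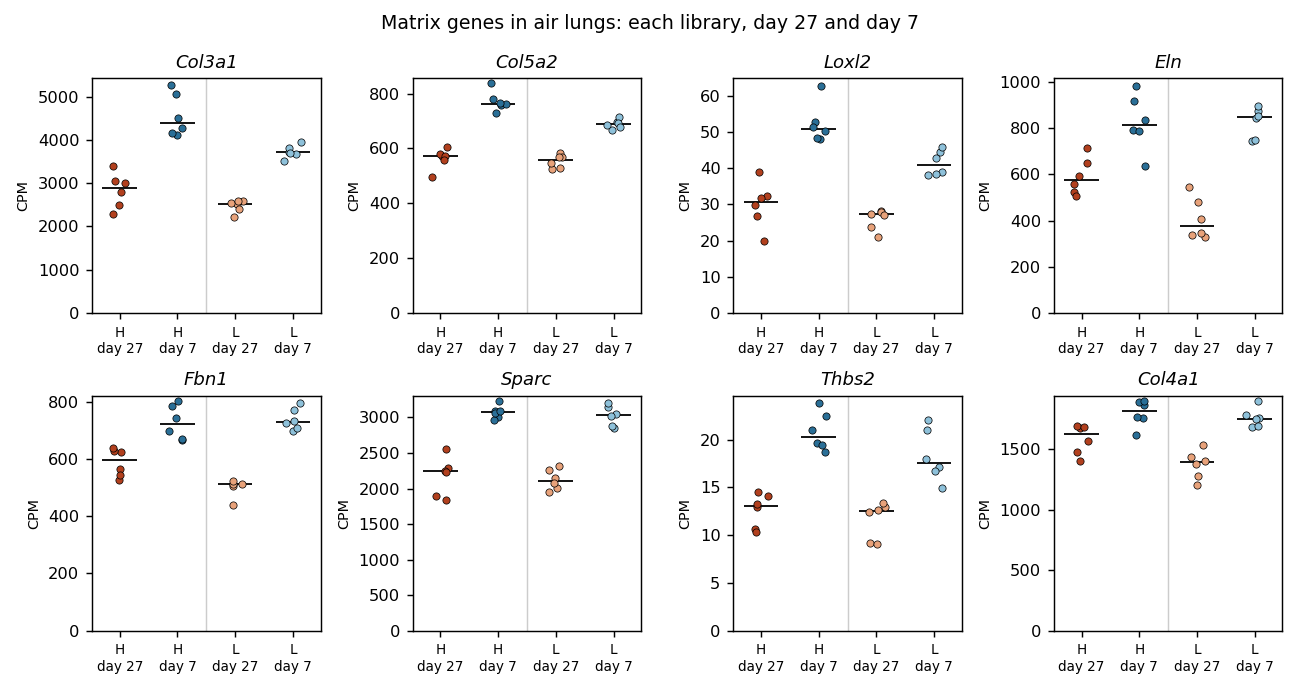
CPM of 8 matrix genes in each air library, with day 27 left of day 7 in set H and then in set L; each point is 1 library and each bar the median of 6. Col3a1, Col5a2, Fbn1, Sparc and Thbs2 had no overlap between the 12 libraries of day 27 and the 12 of day 7; Loxl2 overlapped only across the sets, and Eln and Col4a1 within set H.

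The elastic fibre genes called with the block all fell. With the block 8 of 13 tested members fell and 0 rose, with a median log2 fold change of -0.32, and alone set H had 8 fallen and 2 risen members and set L 10 fallen and 0 risen. Eln encodes tropoelastin, the precursor of elastin. It had 329, 516 and 715 CPM at day 27, against 637, 839 and 983 CPM at day 7. The sets differed in size of change: the log2 fold change was -0.48 ± 0.10 in set H and -1.03 ± 0.13 in set L, and the difference between them of 0.54 ± 0.17 passed the test (adjusted p = 0.0159). With the block the change was -0.76 ± 0.10 (adjusted p = 3.99e-05). The days overlapped in set H and not in set L.

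Fbn1, the fibrillin of the microfibrils on which elastin is laid down, had 439.9, 525 and 639 CPM at day 27 and 666, 729 and 801 CPM at day 7, without overlap. It fell by 0.44 (SE 0.05, adjusted p = 1.89e-06). Loxl1, the lysyl oxidase-like enzyme of elastin, had 105, 135 and 177 CPM at day 27 and 163, 195 and 234 CPM at day 7, and fell by 0.51 (SE 0.07, adjusted p = 3.76e-05). Ltbp2, a microfibril-associated protein of the latent TGF-beta binding family, fell by 0.30 (SE 0.05, adjusted p = 6.00e-04). Emilin1, Lox, Fbln2 and Mfap5 made up the 8, but Fbln2 and Mfap5 were not called as lower in both sets. Adamts17, a secreted metalloprotease outside this list, had 30.4, 42.9 and 53.9 CPM at day 27. At day 7 it had 54.4, 71.0 and 90.9 CPM, again without overlap.

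Basement membranes are sheets of type IV collagen and laminins under epithelium and endothelium. Of 17 tested members of this list 9 fell and 0 rose with the block, with a median log2 fold change of -0.20. Alone, set H had 8 fallen and 1 risen and set L 7 fallen and 0 risen members, and Col4a1 and Lamb1 were called as lower in both sets. Col4a1 and Col4a2 encode the chains of the most widespread type IV collagen and start head to head from a shared stretch of chromosome 16. In the RefSeq assembly GRCr8 their starts lie 76 bases apart, and this stretch (chr16:84885521-84885596, + strand) is shown because both of its genes fell; capitals mark the GC box GGGCGG, here read from the other strand.

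Col4a1 to Col4a2 start region: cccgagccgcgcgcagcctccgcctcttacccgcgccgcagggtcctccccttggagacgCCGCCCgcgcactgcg

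GGGCGG, searched on both strands of the 250 bases before each gene's start, was found in 32.4% of 27457 RefSeq promoters and in 6 of the 9 fallen basement membrane genes. It was not particular to them, with 4 of 5 matched fallen genes of the fibrillar collagen list, 2 of 5 of the elastic fibre list and 7 of 10 of the cell cycle list. This is a description of letters and not of binding. Col4a1 had 1206, 1457 and 1695 CPM at day 27 and 1616, 1763 and 1904 CPM at day 7, and fell by 0.28 (SE 0.05, adjusted p = 3.91e-04). Col4a2 had 893, 1063 and 1145 CPM at day 27 and 1092, 1285 and 1503 CPM at day 7, and fell by 0.31 (SE 0.05, adjusted p = 4.87e-04). The partners differed between the sets: Col4a2 changed by -0.46 ± 0.05 in set H and by -0.14 ± 0.05 in set L, a difference of -0.33 ± 0.08 that passed the test (adjusted p = 9.86e-04), while Col4a1 changed by -0.18 ± 0.06 and -0.36 ± 0.05, a difference that did not (adjusted p = 0.086). Lamb1, the laminin beta-1 chain, fell by 0.30 (SE 0.04, adjusted p = 4.48e-05). Nid1, the nidogen that links laminin to type IV collagen, changed by -0.51 ± 0.08 with the block (adjusted p = 3.94e-04), but by -0.86 ± 0.05 in set L and -0.15 ± 0.07 in set H. Pxdn, the peroxidase that cross-links type IV collagen, had 505, 568 and 631 CPM at day 27 and 647, 699 and 768 CPM at day 7, without overlap.

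Matricellular proteins bind matrix and cell receptors without being part of the fibres. Of 10 tested members 4 fell and 0 rose with the block, with a median log2 fold change of -0.24. Set H alone had 3 fallen and 3 risen members and set L 6 fallen and 0 risen. Fn1, which encodes fibronectin, and Timp1, an inhibitor of matrix proteases, named here after their values were seen, were called in opposite directions, with 0.35 and 0.72 in set H and -0.57 and -0.58 in set L. Sparc, a collagen-binding protein, had 1833, 2189 and 2551 CPM at day 27 and 2845, 3060 and 3228 CPM at day 7. All 12 libraries of day 27 lay below those of day 7, and the changes of -0.49 ± 0.07 in set H and -0.51 ± 0.05 in set L were of like size (with the block -0.51 ± 0.04, adjusted p = 2.71e-08). Thbs2, a thrombospondin, had 9.04, 12.7 and 14.5 CPM at day 27 and 14.9, 19.5 and 23.8 CPM at day 7, and fell by 0.70 (SE 0.08, adjusted p = 6.26e-06). Tnc, the tenascin of developing and healing tissue, fell by 0.71 (SE 0.13, adjusted p = 0.0022) and Thbs1 by 0.30 (SE 0.08, adjusted p = 0.0221), both with overlapping days and with a call in set L and not in set H.

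Among 11 tested matrix proteases and their inhibitors 2 fell and 0 rose with the block, with a median log2 fold change of -0.15. Alone, set H had 1 fallen and 2 risen of 11 and set L 4 fallen and 2 risen of 10. Over all genes 6.97% were called with the block, 33.2% in set H and 23.5% in set L. Mmp14, a membrane-bound collagenase, had 72.9, 83.7 and 116 CPM at day 27 and 92, 116 and 141 CPM at day 7, and fell by 0.43 (SE 0.07, adjusted p = 2.99e-04), with calls in both sets. Mmp2, the gelatinase that Mmp14 activates, fell by 0.29 (SE 0.06, adjusted p = 0.00167), and here the sets differed: -0.10 ± 0.06 in set H and -0.48 ± 0.05 in set L (difference 0.37 ± 0.08, adjusted p = 4.57e-04). Other secreted or surface proteins without overlap between the days were Igsf10, which fell by 0.57, Olfml3, which fell by 0.54, and the proteoglycan syndecan-1 (Sdc1), which had 133, 162 and 182 CPM at day 27 and 188, 222 and 259.8 CPM at day 7. Sdc1 is also made by plasma cells. Of the 5 tested plasma cell markers it was the only 1 called with the block, while 1 fell in set H and 2 in set L. The summed level of that list was 352 to 400.3 CPM at day 27 and 402 to 490.1 CPM at day 7 over both sets. Without Sdc1 the sum was 194 to 242 CPM at day 27 and 204 to 258 CPM at day 7.

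Fibroblasts make most of the matrix, and their markers had no common direction with the block. Of 10 tested fibroblast markers 1 rose, 1 fell and 8 were not called with the block, with a median log2 fold change of 0.02. The sets differed in their counts: set H had 1 risen and 3 fallen markers, and set L had 6 risen and 0 fallen with a median of 0.41. Pdgfra, the platelet-derived growth factor receptor of lung fibroblasts, rose: it had 258, 321 and 367 CPM at day 27 and 215, 259 and 287 CPM at day 7 (log2 fold change 0.34 ± 0.06, adjusted p = 4.87e-04, called in both sets). Lum, the collagen-binding proteoglycan lumican, fell by 0.36 (SE 0.09, adjusted p = 0.0147). The summed level of the fibroblast list was 1506 to 1662 CPM at day 27 and 1498 to 1677 CPM at day 7 in set H, and 1615 to 1924 CPM at day 27 and 1341 to 1501 CPM at day 7 in set L, with no marker at 0. In set L the sum was thus higher at day 27 while the collagens were lower, and its part in the result was not tested.

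The genes of cell division that were called with the block fell. Of 28 tested cell cycle and DNA replication genes 12 fell and 0 rose with the block, with a median log2 fold change of -0.36. Alone, set H had 11 fallen and 1 risen and set L 6 fallen and 0 risen members. Top2a, the topoisomerase that untangles replicated chromosomes, was the member with the smallest p. It had 17.3, 24.7 and 30.5 CPM at day 27 and 29.4, 35.9 and 43.3 CPM at day 7. The highest library of day 27 just passed the lowest of day 7, and the change was -0.55 ± 0.13 in set H and -0.56 ± 0.10 in set L (with the block -0.56 ± 0.09, adjusted p = 1.69e-04). Kif20a, a kinesin of the mitotic spindle and of cell separation, had 2.36, 4.14 and 7.15 CPM at day 27 and 5.53, 7.07 and 12.2 CPM at day 7, and fell by 0.73 (SE 0.16, adjusted p = 0.00542). Nusap1, a protein of spindle microtubules, had 2.95, 4.88 and 6.84 CPM at day 27 and 5.69, 7.54 and 10.4 CPM at day 7, and fell by 0.56 (SE 0.12, adjusted p = 0.00478), with a call in set H and not in set L. Bub1, a kinase of the spindle checkpoint, fell by 0.44 (SE 0.10, adjusted p = 0.00698) with calls in both sets. The count of 12 was 6 when the 12 air libraries of day 1 shared the fit.

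Promoters of mitotic genes are known to carry CCAAT boxes, which the factor NF-Y binds. The 250 bases before the starts of Top2a, Kif20a and Nusap1 are shown because these fallen genes carry such boxes; they are from the RefSeq assembly GRCr8, 5′ to 3′ on each gene's strand, with CCAAT in capitals on either strand (ATTGG where it is read from the other one). They lie at chr10:84473094-84473343 (- strand), chr18:26504172-26504421 (+ strand) and chr3:127057045-127057294 (+ strand).

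Top2a: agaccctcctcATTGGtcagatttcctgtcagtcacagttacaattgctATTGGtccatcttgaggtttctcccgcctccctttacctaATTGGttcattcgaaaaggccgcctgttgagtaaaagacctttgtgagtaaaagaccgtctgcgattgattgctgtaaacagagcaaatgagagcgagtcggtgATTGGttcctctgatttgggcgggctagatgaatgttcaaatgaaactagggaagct
Kif20a: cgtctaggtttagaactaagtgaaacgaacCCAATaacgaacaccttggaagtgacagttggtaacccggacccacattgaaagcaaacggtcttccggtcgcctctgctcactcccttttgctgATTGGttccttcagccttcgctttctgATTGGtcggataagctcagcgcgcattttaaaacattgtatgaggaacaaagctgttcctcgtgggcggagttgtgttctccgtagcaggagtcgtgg
Nusap1: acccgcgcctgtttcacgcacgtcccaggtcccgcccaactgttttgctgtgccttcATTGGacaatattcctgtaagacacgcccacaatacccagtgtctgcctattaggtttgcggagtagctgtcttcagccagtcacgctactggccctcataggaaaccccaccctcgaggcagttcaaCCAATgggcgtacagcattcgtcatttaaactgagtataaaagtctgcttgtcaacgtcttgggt

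Of the 12 fallen cell cycle genes 10 had a promoter in the table, and CCAAT was found on either strand in 6 of these 10, against 34.3% of all 27457 promoters. Among matched fallen matrix genes it was found in 0 of 5 of the fibrillar collagen list, 1 of 5 of the elastic fibre list and 4 of 9 of the basement membrane list. Nfya, which encodes the DNA-binding subunit of NF-Y, was itself among the genes that rose, with 38.1, 46.2 and 56.1 CPM at day 27 and 29.7, 34.5 and 47.8 CPM at day 7 (log2 fold change 0.34 ± 0.07, adjusted p = 0.00387).

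Clustered histone genes followed the cell cycle genes in direction. Of 26 tested members 9 fell and 0 rose with the block, with a median log2 fold change of -0.40. The sets differed in their counts, with 17 fallen and 1 risen members in set H and 3 fallen and 0 risen in set L. Hist1h3a had 9.05, 12.8 and 19.7 CPM at day 27 and 14.7, 18.5 and 25.1 CPM at day 7, and fell by 0.52 (SE 0.11, adjusted p = 0.00625) with calls in both sets, as did Hist1h2bk, which fell by 0.46. Hist1h2ail fell by 1.00 in set H and changed by -0.18 ± 0.17 in set L, a difference that passed the test (-0.83 ± 0.23, adjusted p = 0.00464). Histone genes are near-identical copies, so the share of reads of each member is uncertain. Cdkn2c, an inhibitor of the kinases that start the cell cycle, fell with these genes: it had 3.66, 6.40 and 8.96 CPM at day 27 and 8.88, 12.1 and 14.7 CPM at day 7 (log2 fold change -0.91 ± 0.12, adjusted p = 3.99e-05).

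**Figure D3:**
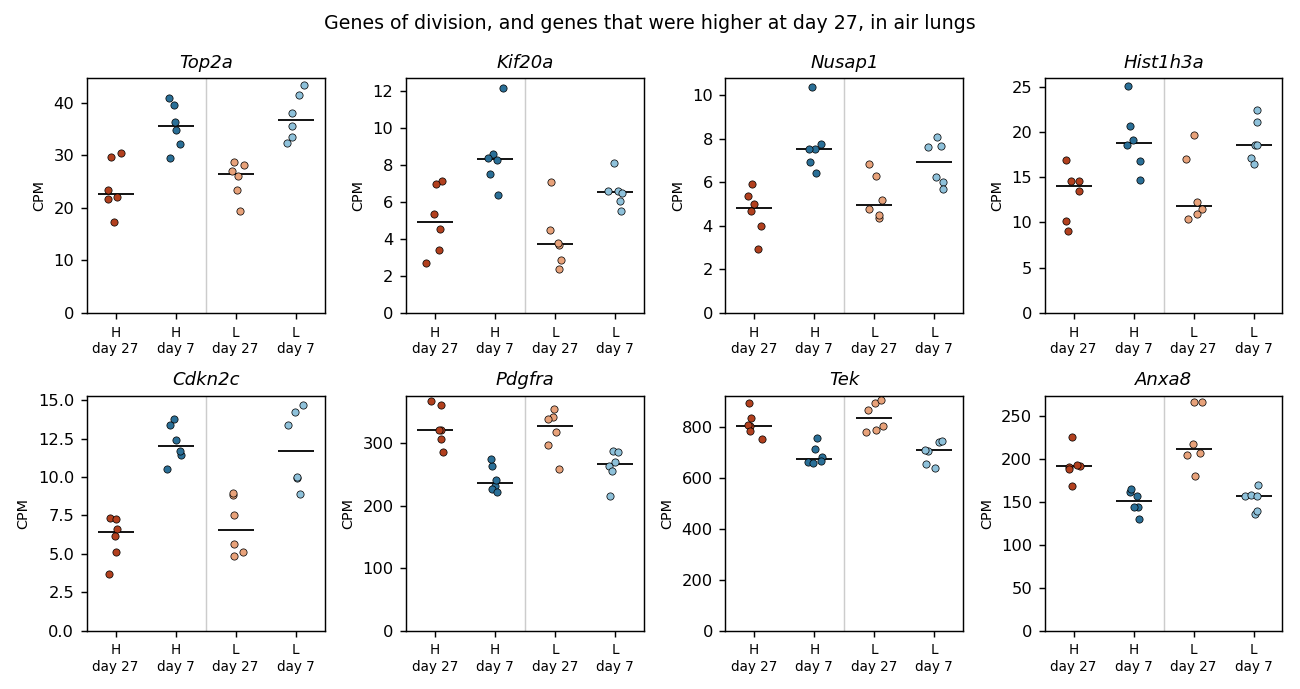
CPM of 5 genes that fell and 3 genes that rose in each air library, with day 27 left of day 7 in set H and then in set L; each point is 1 library and each bar the median of 6. Top2a, Kif20a, Nusap1, Hist1h3a and Cdkn2c have lower medians at day 27 in both sets, and Pdgfra, Tek and Anxa8 higher ones.

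Calls among growth signals are to be read beside the shares over all genes, 6.97% with the block, 33.2% in set H and 23.5% in set L. Of 16 tested growth factor and growth hormone axis genes 2 fell and 0 rose with the block, 5 fell and 5 rose in set H, and 5 fell and 0 rose in set L. Of 10 tested members of the imprinted growth network 2 fell and 0 rose with the block, 5 fell and 1 rose in set H, and 0 were called in set L. Igf1, the growth factor that growth hormone induces, had 177, 203 and 231 CPM at day 27 and 203, 239.8 and 261 CPM at day 7, and fell by 0.25 (SE 0.05, adjusted p = 0.00342) with calls in both sets. Mest, an imprinted gene of growing mesenchyme, fell by 0.69 (SE 0.19, adjusted p = 0.022) at low levels, with 2.43, 4.02 and 7.65 CPM at day 27 and 3.39, 6.54 and 15.7 CPM at day 7.

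Other genes that fell in both sets had varied roles. Cpvl, a serine carboxypeptidase found in macrophages, had 4.35, 7.25 and 10 CPM at day 27 and 10.4, 13.9 and 20.4 CPM at day 7, without overlap (log2 fold change -0.96 ± 0.13, adjusted p = 5.94e-05). Lipg, the endothelial lipase, fell by 0.75 (SE 0.17, adjusted p = 0.00894), and Pdgfrl, a receptor-like relative of the platelet-derived growth factor receptors, fell by 0.80 (SE 0.19, adjusted p = 0.00861). Ankle1, an endonuclease, fell by 0.72 and Depdc7 by 0.68. None of these 4 genes was above 21.1 CPM in any library. Kdelr1, the receptor that returns proteins to the endoplasmic reticulum, and Cd81, a tetraspanin, fell by 0.29 and 0.25 without overlap between the days.

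Of the 69 genes that rose in both sets, only Pdgfra, Tek and Cd3g belong to the cell type lists examined. The furthest risers were a locus listed as Cd99l2-2, which rose by 0.89 (SE 0.20, adjusted p = 0.00783) and was at most 6.62 CPM, and Cd3g, a chain of the T cell receptor complex. Cd3g had 3.44, 3.95 and 7.06 CPM at day 27 and 1.75, 2.47 and 3.13 CPM at day 7 (log2 fold change 0.83 ± 0.13, adjusted p = 2.77e-04). It was the only 1 of 12 tested T cell markers that was called with the block, while 2 rose in set H and 1 in set L. The summed level of that list was 115 to 178 CPM at day 27 and 122 to 162 CPM at day 7 over both sets. Eif1, a translation initiation factor, had 93.5, 118 and 146 CPM at day 27 and 56.9, 84.5 and 99.0 CPM at day 7, and rose by 0.52 (SE 0.08, adjusted p = 2.99e-04). Near-identical copies of Eif1 make its read share uncertain, and its rise was larger in set H (0.78 ± 0.11) than in set L (0.28 ± 0.07; difference 0.49 ± 0.13, adjusted p = 0.00521).

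Anxa8, a phospholipid-binding annexin, had 168, 199 and 266 CPM at day 27 and 129.6, 157 and 169.5 CPM at day 7. Within each set its days did not overlap, and it rose by 0.45 (SE 0.06, adjusted p = 7.46e-05). Kcnj15, an inward-rectifier potassium channel, rose by 0.42 (SE 0.08, adjusted p = 0.00105), Ccdc146, a centriole-associated protein, by 0.41 (SE 0.10, adjusted p = 0.00995) and Pon2, an antioxidant paraoxonase, by 0.40 (SE 0.08, adjusted p = 0.00295). Cd55, which protects cells from complement, had 47.1, 53.3 and 60.2 CPM at day 27 and 32.7, 42.1 and 47.7 CPM at day 7, and rose by 0.36 (SE 0.06, adjusted p = 6.75e-04). Ugcg, the enzyme of glucosylceramide synthesis, rose by 0.34, and Alas1, the enzyme of heme synthesis outside red cells, by 0.32. Apart from Cd3g, the genes that rose without overlap between the days had smaller changes: Usp24, a deubiquitinase, had 288, 303 and 329.6 CPM at day 27 and 245, 263 and 276 CPM at day 7, a log2 fold change of 0.20 ± 0.03 (adjusted p = 1.29e-04), and Rabgap1l, Crebrf, Cped1 and Rsbn1l rose by 0.25, 0.23, 0.19 and 0.17.

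Enzymes by which the lung metabolises xenobiotics had risers and no fallers with the block. Of 16 tested P450 enzymes, flavin monooxygenases and related genes 5 rose and 0 fell with the block, with a median log2 fold change of 0.21. Alone, 3 rose in set H and 5 rose and 1 fell in set L. The shares called over all genes were 6.97% with the block, 33.2% in set H and 23.5% in set L. Fmo2, a flavin monooxygenase gene measured here as transcript alone, had 515, 652 and 905 CPM at day 27 and 400.1, 513 and 679 CPM at day 7. It rose by 0.46 (SE 0.10, adjusted p = 0.00544). It was called in set L and not in set H, without a called difference between the sets (adjusted p = 0.65). Fmo1 rose by 0.34 with the block, and its change differed between the sets (0.14 ± 0.08 in set H and 0.54 ± 0.08 in set L). Aldh3a1, an aldehyde dehydrogenase, rose by 0.77 (SE 0.20, adjusted p = 0.0156) and was at most 5.17 CPM in any library. Cyp4b1, a P450 enzyme of club cells, rose by 0.25 with the block (adjusted p = 0.0192), by 0.46 ± 0.08 in set L, and changed by 0.05 ± 0.05 in set H. Of the club cell markers 1 rose and 2 fell of 6 tested in set H, and 1 rose and 0 fell of 7 tested in set L, with no marker at 0. Without Scgb1a1, their summed level was 841 to 957 CPM at day 27 and 955 to 1366 CPM at day 7 in set H, and 971 to 1551 CPM at day 27 and 839 to 1008 CPM at day 7 in set L. Their part in the result was not tested.

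Cholesterol synthesis and uptake genes had 4 fallen and 0 risen of 19 tested members with the block, with a median log2 fold change of -0.20. Alone, set H had 4 fallen and 2 risen and set L 8 fallen and 1 risen members. Among all genes tested, 6.97% were called with the block, 33.2% in set H and 23.5% in set L. Hmgcs1, the synthase that supplies the pathway, had 77.6, 101 and 124 CPM at day 27 and 119, 142 and 163 CPM at day 7, and fell by 0.51 (SE 0.07, adjusted p = 3.99e-05) with calls in both sets. Srebf2, the transcription factor of the pathway, fell by 0.19 (adjusted p = 0.00861); its change was called in set L alone and differed between the sets (adjusted p = 0.00125). Fads1, a fatty acid desaturase, fell by 0.26 (SE 0.05, adjusted p = 0.0028). Plin2, which coats lipid droplets, fell by 0.20 (SE 0.04, adjusted p = 0.00509) with calls in both sets.

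Of 8 tested red blood cell transcripts 2 fell and 0 rose with the block, with a median log2 fold change of -0.65. Alone, 1 of 6 fell in set H and 4 of 5 fell in set L. Hbb, a beta globin, had 456, 544 and 1505 CPM at day 27 and 611, 872 and 1805 CPM at day 7, and fell by 0.68 (SE 0.18, adjusted p = 0.0213). Alas2, the red cell enzyme of heme synthesis, had 17.9, 22.1 and 61.8 CPM at day 27 and 26.7, 40.2 and 79.8 CPM at day 7, and fell by 0.79 (SE 0.19, adjusted p = 0.0122). The highest day 27 value of both genes belongs to animal 020 of set H; without that library 4 members of the list fell. The summed level of the list was 987 to 3516 CPM at day 27 and 1471 to 3080 CPM at day 7 over both sets, with no marker at 0, and its part in the other results was not tested. Of 9 tested natural killer and cytotoxic lymphocyte markers 2 rose and 0 fell with the block, 2 rose in set H and 0 were called in set L. Among them Klrk1, a receptor of natural killer cells, rose by 0.34 (SE 0.08, adjusted p = 0.0111). Only 2 eosinophil markers were tested, with a median log2 fold change of -0.05 with the block. Alox15, a lipoxygenase of eosinophils and other cells, fell by 0.65 (SE 0.17, adjusted p = 0.0171), and the other had a positive change that was not called. In set H alone 1 of the 2 fell and 0 rose, and in set L 1 rose and 0 fell.

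Genes that follow the hour or the stress of the animals were called in varying shares. Over all genes the shares called were 6.97% with the block, 33.2% in set H and 23.5% in set L. Of 16 tested clock genes 1 rose and 0 fell with the block. In set H 4 rose and 1 fell, and in set L 1 rose and 2 fell. The riser with the block was Tef, a clock output factor, with 0.21 ± 0.05 (adjusted p = 0.0135), called in set L alone. Of 11 glucocorticoid-responsive genes 2 rose and 2 fell with the block, 4 rose and 2 fell in set H, and 1 rose and 1 fell in set L. Sgk1, a glucocorticoid-induced kinase, had 64.8, 77.8 and 86.7 CPM at day 27 and 84.6, 98.8 and 108 CPM at day 7, and fell by 0.33 (SE 0.05, adjusted p = 1.79e-04) with calls in both sets, whereas Fkbp5, another glucocorticoid-induced gene, rose by 0.67 (SE 0.16, adjusted p = 0.0121). Of 13 heat shock chaperones 3 rose and 0 fell with the block, 4 rose and 3 fell in set H, and 5 rose and 2 fell in set L. Hsp90ab1, a cytosolic chaperone, rose by 0.32 with the block, by 0.63 ± 0.05 in set H, and changed by 0.03 ± 0.06 in set L.

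Few markers of endothelium and lung epithelium had the same call in both sets. Tek, the angiopoietin receptor of endothelium, rose in both. It had 753, 806 and 908 CPM at day 27 and 639, 696 and 758 CPM at day 7, a log2 fold change of 0.24 ± 0.04 (adjusted p = 2.84e-04). Of 15 endothelial markers set H had 7 risen and 2 fallen, and set L 1 risen and 5 fallen. The endothelial sum was 5542 to 6169 CPM at day 27 and 4499 to 5238 CPM at day 7 in set H, and 4861 to 5506 CPM at day 27 and 5338 to 6103 CPM at day 7 in set L. Of 10 type I pneumocyte markers set H had 7 risen and 2 fallen, and set L 0 risen and 2 fallen. Of 6 pericyte markers 2 fell with the block, among them Cox4i2, a lung form of a respiratory chain subunit, by 0.48 (SE 0.10, adjusted p = 0.00304).

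**Figure D4:**
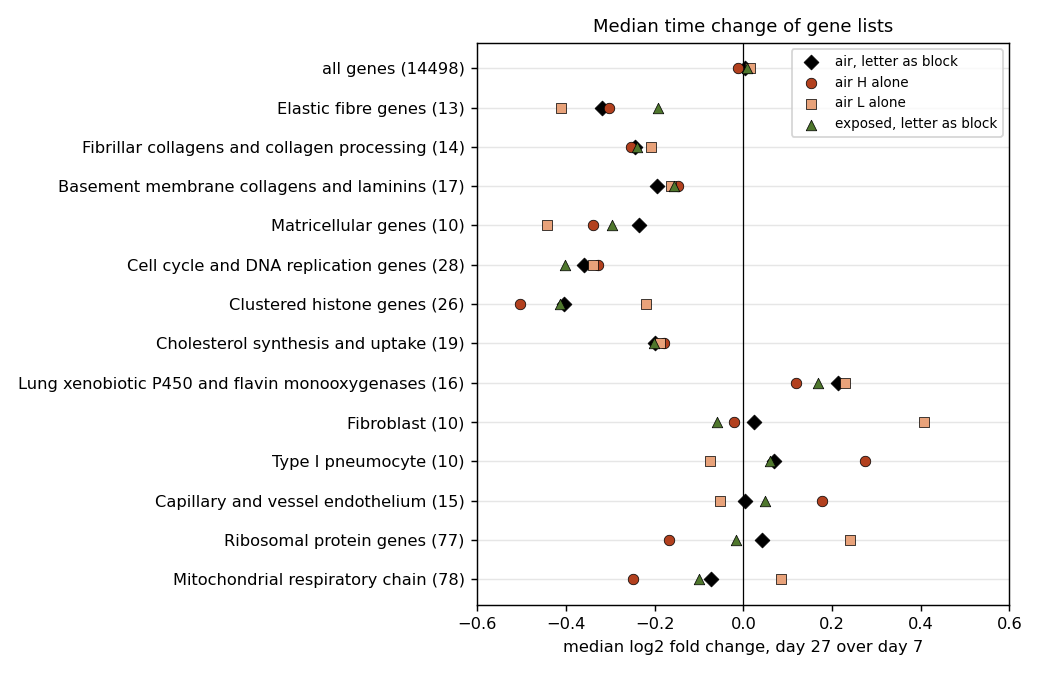
Median log2 fold change, day 27 over day 7, of gene lists (number of genes tested with the block in parentheses) in the blocked air comparison, in air set H, in air set L and in exposed lungs. Matrix, division, histone and cholesterol lists lie below 0 in all 4, the xenobiotic list lies above 0 in all 4, and the ribosomal protein and respiratory chain lists have opposite signs in sets H and L.

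Genes for ribosomes and mitochondria had medians of opposite sign in the sets. Of the ribosomal protein genes, 10 rose and 35 fell among 76 tested in set H, with a median log2 fold change of -0.17, and 44 rose and 3 fell among 77 tested in set L, with a median of 0.24. With the block 5 rose and 1 fell, among them Rpl21, Rpl28 and Rpl3, which rose by 0.31, 0.28 and 0.19 with the block and more in set H than in set L (adjusted p of the difference 0.0216, 0.00584 and 0.0056). These genes have near-identical copies, so their read shares are uncertain. Respiratory chain genes had 10 risen and 40 fallen of 76 in set H and 13 risen and 6 fallen of 77 in set L, with medians of -0.25 and 0.09.

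The genes with the smallest p for a difference between the sets were well separated in every library. Scamp3, a membrane protein of vesicle traffic, had 32.4, 34.4 and 42.9 CPM at day 27 and 7.13, 9.12 and 10.4 CPM at day 7 in set H. In set L it had 12.0, 14.8 and 27.4 CPM at day 27 and 40.4, 44.8 and 54.5 CPM at day 7. The days did not overlap in either set and were in opposite order, with log2 fold changes of 1.99 ± 0.11 in set H and -1.46 ± 0.17 in set L, a difference of 3.44 ± 0.20 (adjusted p = 7.82e-13). Fgf1, a fibroblast growth factor, and its receptor Fgfr1 did likewise. Fgf1 changed by 1.13 ± 0.08 in set H and by -0.98 ± 0.08 in set L, a difference of 2.1 ± 0.12 (adjusted p = 6.37e-14), and Fgfr1 by 1.00 ± 0.07 in set H and -0.63 ± 0.07 in set L. With the block both were near 0, at 0.04 ± 0.24 and 0.17 ± 0.18. Riok3, an atypical kinase, and Lrch4, a leucine-rich repeat protein, had differences of 1.3 ± 0.07 and 2.19 ± 0.13.

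The opposite pattern, lower at day 27 in set H and higher in set L, led with Tpt1, an abundant growth-related protein. It had 808, 829 and 850.4 CPM at day 27 and 978, 1031 and 1111 CPM at day 7 in set H, and 1100, 1214 and 1284 CPM at day 27 and 735, 771 and 813 CPM at day 7 in set L. The difference between its changes was -0.94 ± 0.06 (adjusted p = 1.08e-12). Tuba1a, an alpha tubulin, Foxo4, a forkhead factor, Capzb, which encodes a subunit of the complex that caps actin filaments, and Pum2, a protein that represses mRNA, had differences of -1.20 ± 0.09, -1.37 ± 0.11, -0.87 ± 0.07 and -0.68 ± 0.06, and for none of these genes did the days overlap within a set. Col1a1, chosen here after its values were seen because it is the other main fibrillar collagen, did not move as Col3a1 did. It had 168, 192 and 228 CPM at day 27 and 91.9, 153 and 233 CPM at day 7 in set H, and 66.4, 90.6 and 124 CPM at day 27 and 282, 355 and 448 CPM at day 7 in set L. It fell by 1.91 in set L (SE 0.18, adjusted p = 3.45e-05), its change in set H was 0.32 ± 0.23 (adjusted p = 0.32), and the difference of 2.22 ± 0.29 passed the test (adjusted p = 3.49e-06).

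**Figure D5:**
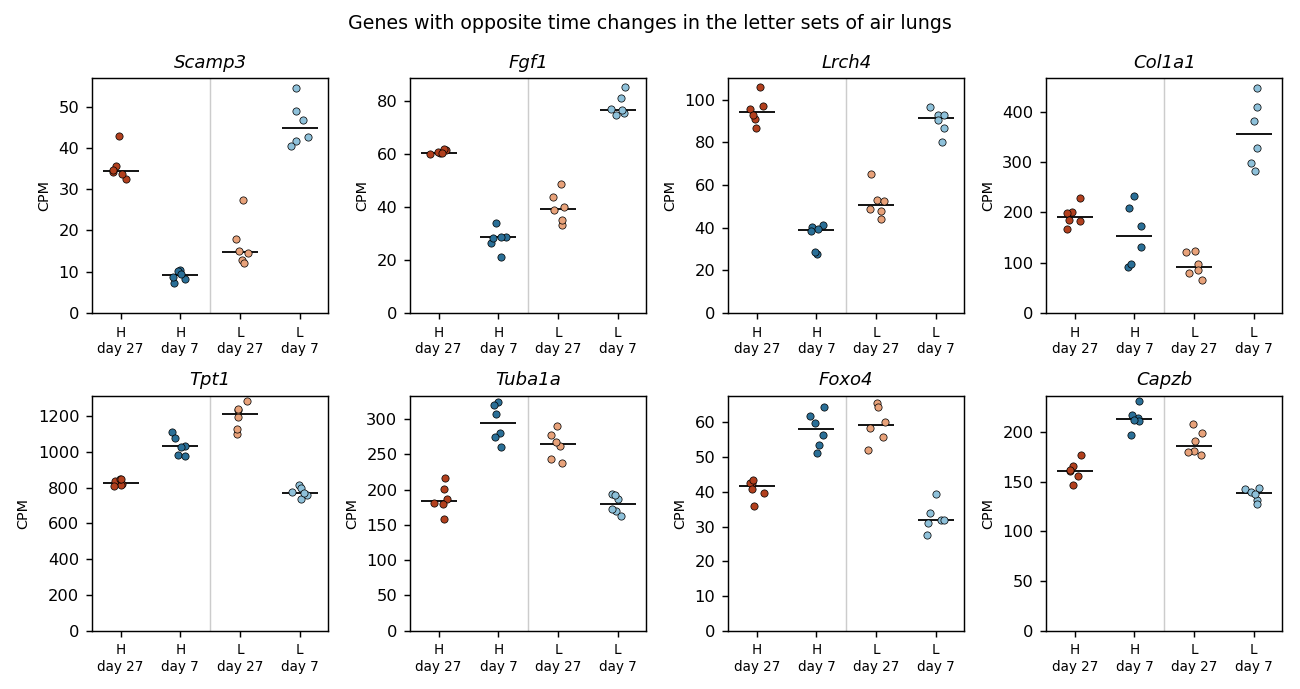
CPM of 8 genes in each air library, with day 27 left of day 7 in set H and then in set L; each point is 1 library and each bar the median of 6. Scamp3, Fgf1 and Lrch4 are higher at day 27 in set H and lower at day 27 in set L, Tpt1, Tuba1a, Foxo4 and Capzb show the reverse, and Col1a1 is lower at day 27 in set L with overlapping days in set H.

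The 24 exposed lungs of the same days come from other animals and share no library with the air lungs. The difference between the letters was tested in them too, a contrast added after the air result was seen. Among 14518 genes 1846 (12.7%) were called for a different time change in H and L, and 1632 of them were also called in air, all in the same direction, which is 88.4% of the exposed calls and 30.1% of the air calls. Scamp3 had an exposed difference of 2.53 ± 0.36 (adjusted p = 4.56e-05) and Fgf1 one of 1.67 ± 0.18 (adjusted p = 1.11e-07). Col1a1 had one of 1.06 ± 0.40 that was not called (adjusted p = 0.0886). Without 3 exposed libraries below 500000 counts, 2100 genes were called and 1831 of them shared. In exposed lungs the letter also goes with the particle dose, which was higher in H than in L. Dose and any other difference between the letters cannot be told apart in the exposed contrast. What sets the letters apart in air rats is not given in the labels and was not tested.

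With the letter as block the exposed lungs gave 190 calls between the days among 14518 genes (1.31%), 53 higher (0.365%) and 137 lower (0.944%) at day 27. Of these, 118 were also called in air with the block, which is 62.1% of the exposed and 11.7% of the air calls, and all 118 moved in the same direction. Without the 3 shallow libraries the exposed lungs gave 210 calls, 50 higher and 160 lower. Of the 119 genes that fell in both air sets 36 were called in exposed lungs, and of the 69 that rose 10, all 46 in the direction of air. Several matrix genes had changes of like size in the exposed lungs: the log2 fold change was -0.60 ± 0.06 for Col3a1, -0.80 ± 0.07 for Loxl2, -0.49 ± 0.05 for Sparc, -0.73 ± 0.13 for Eln and -0.66 ± 0.12 for Thbs2. Others had smaller ones that were not called, such as Loxl1 with -0.21 ± 0.08 (adjusted p = 0.193) and Emilin1 with -0.11 ± 0.08 (adjusted p = 0.572). The exposed lungs had 5 of 14 fibrillar collagen, 2 of 13 elastic fibre, 4 of 17 basement membrane and 3 of 10 matricellular genes fallen and 0 risen. Loxl2 had 12.6, 25.2 and 34.8 CPM at day 27 and 33.8, 46.2 and 61.4 CPM at day 7 in exposed lungs. Division genes fell there too, with 8 of 28 called, among them Kif20a with -0.93 ± 0.18 and Top2a with -0.49 ± 0.09. Red blood cell transcripts had 6 of 6 tested members fallen.

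Some air changes had no counterpart that could be called. Cpvl changed by -0.96 ± 0.13 in air and by -0.05 ± 0.15 in exposed lungs (adjusted p = 0.939), and Cd3g by 0.83 ± 0.13 in air and 0.21 ± 0.18 in exposed lungs (adjusted p = 0.639). The test of the difference between the air and the exposed time change called 0 of 14910 genes (0%) by edgeR's quasi-likelihood test. Before adjustment 593 genes had a p under 0.05, and 0 genes were called by DESeq2 or by limma-voom. No gene can therefore be said to have changed with time in air lungs and not in exposed ones.

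Air rats of day 1 were measured with shallower libraries, of 1288275 to 2397971 counts, and are given as levels alone. In time order, the medians of Eln on days 1, 7 and 27 were 1478, 814 and 574 CPM in set H and 1406, 847 and 376 CPM in set L, lower at each later day. Col3a1 had medians of 3659, 4390 and 2899 CPM in set H and 3787, 3710 and 2524 CPM in set L, and Sparc had 2982, 3077 and 2240 CPM in set H and 3186, 3038 and 2110 CPM in set L, so that for both genes day 27 was the lowest of the days. Top2a was highest at day 7, with 27.9, 35.6 and 22.6 CPM in set H and 17.1, 36.8 and 26.5 CPM in set L. Cd3g was lowest at day 7, with 5.56, 2.41 and 3.77 CPM in set H and 7.11, 2.68 and 4.69 CPM in set L, and its day 27 level was below that of day 1. Scamp3 had 49 and 54.5 CPM at day 1 in sets H and L, close to day 7 of set L.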

How the data were processed

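The deposited table gives the authors' raw counts of reads for 30042 symbols in 72 libraries. Per the labels' protocols, stranded libraries were made from total lung RNA depleted of ribosomal RNA. HTSeq 0.6.1, HISAT2 2.1.0, Trimmomatic 0.35, bcl2fastq 2.19, SAMtools 1.8 and build Rnor_6.0 are listed in the submitters' processing notes, with no role or order. The sources used here do not give the strand setting or the annotation, so overlapping or antisense genes and near-identical copies are uncertain.

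The test was edgeR's quasi-likelihood test (version 4.0.16, R 4.3.3) with TMM scaling, genes kept by filterByExpr, robust dispersions and Benjamini-Hochberg adjustment over all genes tested at 0.05. The air comparison had the letter as block; differences came from group means. Standard errors were derived from F. CPM are TMM-scaled over 72 libraries. Libraries are of separate animals, housed in pairs per the labels' protocols. None of 60 library pairs within the air groups was identical (chi-square per degree of freedom at least 2.12).

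The libraries, gene lists and rule for named genes were chosen with earlier results of these data known. The rule takes up to 12 rising and 12 falling genes called with the block and in each set, by size of change and leaving out symbols that are identifiers, up to 5 per direction for differences, and up to 4 called members by p per list; members whose call ended when 1 library was left out are counted, not named, and some that the rule takes are not reported here. Genes without overlap were chosen after their values were seen. Alternatives used DESeq2 1.42.0, limma-voom 3.58.1, 1 surrogate variable (sva 3.50.0), other scalings, filters, terms and samples. Tests were tried on simulated counts. Promoters came from RefSeq (GRCr8), matched by symbol.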

Additional observations from a re-analysis of the deposited data

Results flagged for a closer look

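Named genes were screened in each air group, without Fn1, Timp1 and the list members named without an air value. In 20 of 372 groups of 6 libraries 1 library stood apart from the others by Dixon's criterion, which chance meets in about 1 of 20 groups. Animal 020 of set H at day 27 stood high for the red cell genes Hbb (1505 CPM, against 456 to 727 CPM in the others) and Alas2 (61.8 CPM) and for Alox15 (30.1 CPM). Animal 083 of set L at day 27 stood low for Fads1 (155 CPM) and high for Lum (23.7 CPM) and Rabgap1l (197 CPM). Animal 033 of set H at day 7 stood high for Loxl2 (62.7 CPM) and Rpl28 (105 CPM) and low for Plin2 (151 CPM). At day 27, single libraries stood high for Cd55 (59.6 CPM), Scamp3 (42.9 CPM) and Sdc1 (182 CPM) in set H and low for Ccdc146 (16.9 CPM), Fbn1 (439.9 CPM) and Pum2 (343 CPM) in set L. At day 7, single libraries stood high for Alas1 (64.5 CPM), Cpvl (20.4 CPM) and Nusap1 (10.4 CPM) and low for Bub1 (8.60 CPM) in set H, and high for Nfya (47.8 CPM) in set L.

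The time change of the 31 named genes below differed between set H and set L by edgeR's quasi-likelihood test. Fn1, Timp1 and list members named above without an air value were not screened here. Among the latter, Col5a1 differed too (adjusted p = 0.0168). Values here are log2 differences, set H minus set L. Among matrix genes they were 0.56 for Adamts17, 0.54 for Eln, 0.26 for Fbn1, 0.23 for Ltbp2, 0.37 for Mmp2, 0.70 for Nid1, -0.33 for Col4a2 and 2.22 for Col1a1. For metabolic and airway genes they were 0.27 for Srebf2, 0.70 for Scgb1a1, 0.47 for Cox4i2, -0.41 for Cyp4b1 and -0.41 for Fmo1. For genes of translation, stress, chromatin and the clock they were 0.49 for Eif1, 0.31 for Rpl21, 0.35 for Rpl28, 0.22 for Rpl3, 0.60 for Hsp90ab1, -0.83 for Hist1h2ail, -0.20 for Crebrf and -0.24 for Tef. The genes named for their difference had 1.3 (Riok3), 2.1 (Fgf1), 2.19 (Lrch4), 3.44 (Scamp3), 1.63 (Fgfr1), -0.94 (Tpt1), -1.20 (Tuba1a), -1.37 (Foxo4), -0.87 (Capzb) and -0.68 (Pum2).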

How the results depend on the processing

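The count of 1010 genes with the block moved to 2249 when the letters' contrasts were averaged from 4 group means, to 2089 with 1 surrogate variable and to 640 with all 36 air libraries in the fit; the first pair of fits removes the difference between the sets from the residual spread. An absolute fold of at least 1.5 left 72 genes with the block, 1006 in set H, 468 in set L, 2079 for the difference between the sets, 50 in exposed lungs, 13 of the 188 genes shared by the sets and 190 of the opposite ones. DESeq2 called 401 genes in exposed lungs. Animal numbers of set H fall in separate runs, and with the number series as block 1055 genes were called in air. Leaving out 1 library at a time gave 787 to 1125 genes with the block, 4071 to 5104 in set H, 2777 to 3382 in set L, 4947 to 5520 for the difference, 146 to 212 shared and 1356 to 1633 opposite genes. Other scalings, filters, dispersions and limma-voom gave 150 to 205 shared genes, of which 147 to 187 were among the 188. Fn1, Timp1 and list members named without an air value were not followed here, and no other named gene reversed its direction. The excess of lower over higher calls with the block turned round with group means, the surrogate variable and all 72 libraries, and that of higher calls in set H with no scaling factors (2386 higher, 2505 lower). The cell cycle count of 12 was 6 with all 36 air libraries, the cholesterol count of 4 was 7 with group means and 8 with the surrogate variable, and the red blood cell count of 2 was 1 with all 36 air libraries, 5 with all 72 libraries and 4 without animal 020. Scgb1a1 missed the threshold with no filter (adjusted p = 0.053), no letter term (0.0991) and all 36 air libraries (0.0611), as did Hsp90ab1 with no letter term (0.0652) and Rpl21 (0.152), Lum (0.0689) and Hbb (0.0646) with all 36 air libraries. The causes of these shifts were not tested. No paired analysis was possible because animal numbers differ between all groups. Genes below about 5 CPM rest on few reads per library.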
